A study of Mus musculus with 11 samples.

Results

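The genes described here encode the core of the small RNA silencing machinery: the Argonaute genes Ago1, Ago2 and Ago3, the TNRC6 genes Tnrc6a, Tnrc6b and Tnrc6c, and the microRNA processing and export genes Drosha, Dgcr8, Xpo5 and Dicer1. They were chosen by symbol, and all 10 were found among the 13636 genes of the deposited table. The study sequenced liver RNA of male C57BL/6J mice that were 8 weeks old when a Western diet began. After a month on the diet they were injected with PBS, with a scramble oligomer or with a miR-30c mimic, an oligomer that stands in for that microRNA, at doses rising from 2.5 through 5.0 to 7.5 mg/kg over 6 weeks. The groups held 4 PBS, 3 scramble and 4 mimic libraries, and all of them shared the strain, sex and diet. Chemistry, carrier and route of the oligomers are not given in the sources used here, and the labels do not say that each library is a separate mouse, so that the p-values reflect only how these libraries vary, which may be technical.

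MicroRNAs are cut from a hairpin in the nucleus by Drosha with its partner Dgcr8, leave the nucleus through Xpo5 (exportin 5) and are cut again in the cytoplasm by Dicer1. One strand is then held by an Argonaute protein, which finds messenger RNAs by pairing of the microRNA seed with the 3′ UTR. TNRC6 proteins (GW182) bind Argonaute and recruit the deadenylases that shorten the poly(A) tail of the target. A mimic such as that of miR-30c is loaded into Argonaute without passing through the processing steps. In liver, miR-30c is known for repressing Mttp, the microsomal triglyceride transfer protein that lipoprotein assembly needs.

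The sequences below show what the seed of the injected microRNA could pair with in these genes. The mature microRNAs are from RefSeq (table of build GRCm38.p6), 5′ to 3′, with the seed, bases 2 to 8, in capitals. The 3 listed members of the miR-30 family share 1 seed.
mmu-miR-30c-5p: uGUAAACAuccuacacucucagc
mmu-miR-30a-5p: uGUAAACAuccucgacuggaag
mmu-miR-30e-5p: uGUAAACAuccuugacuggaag

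The 7-base match to this seed is TGTTTAC, and TGTTTACA is the 8-base match with a further A. Both were searched on the sense strand of annotated 3′ UTRs (GENCODE M21, GRCm38, the same assembly as the mm10 of the submitters' notes). Shown are the matches of Ago2 and Tnrc6b, the members that were lower under the mimic, and of Tnrc6a, which did not pass the test. Tnrc6a is the member with the most matches in the 3′ UTRs of protein-coding transcripts. Each line holds 30 bases of the sense strand with the 7-base match in capitals, and the coordinates are those of the capitals. Ago2 lies on the minus strand, Tnrc6a and Tnrc6b on the plus strand.
Ago2 site 1, chr15:73106289-73106295: ggagatggtcacgtgTGTTTACggcagtga
Ago2 site 2, chr15:73103493-73103499: acatctgtatcctaaTGTTTACctgtcacc
Ago2 site 3, chr15:73103226-73103232: ttataactgtcccagTGTTTACcttcaggc
Tnrc6b site 1, chr15:80932185-80932191: tgctagagcccctctTGTTTACaagacata
Tnrc6b site 2, chr15:80939002-80939008: gtgtgtgtgtgtgtgTGTTTACatgtatgc
Tnrc6b site 3, chr15:80939938-80939944: aatcctagggggctaTGTTTACatagtgaa
Tnrc6a site 1, chr7:123193385-123193391: ctgttccagtgtagaTGTTTACtcaagggt
Tnrc6a site 2, chr7:123193673-123193679: cacggtgaaccttctTGTTTACagattttt
Tnrc6a site 3, chr7:123193712-123193718: ttttgagaaaaaaaaTGTTTACtcttccat
Tnrc6a site 4, chr7:123194472-123194478: tcagtggcttttaacTGTTTACaataggat

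All 3 Ago2 matches are of 7 bases, all 3 Tnrc6b matches are of 8 bases, and Tnrc6a has 2 of each kind. Among the other members, Ago1 holds 1 match of 8 bases, Tnrc6c 2 matches and Ago3 3 matches, of which the first 2 lie directly side by side. No match was found in the 3′ UTRs of Dicer1, Drosha, Dgcr8 and Xpo5. So 6 of 10 members hold a 7-base match in the longest 3′ UTR of their protein-coding transcripts, against 16% of the 11450 genes with such a UTR. Taking the longest 3′ UTR of any transcript type gave 5 of 10 members and 16.5% of 11459 genes, because the longest one of Tnrc6a then belongs to a transcript annotated as subject to nonsense-mediated decay. The restriction to protein-coding transcripts was chosen after seeing the data. The members' UTRs are long: the median is 3219.5 bases against 1166.5 bases for all genes, the members with a match have UTRs of 2345 to 12742 bases and those without one of 169 to 3851 bases. Of the 1811 genes with a 3′ UTR of at least 3000 bases, 39.6% hold a match. A match is a description of these letters and was not tested for binding.

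**Figure D1:**
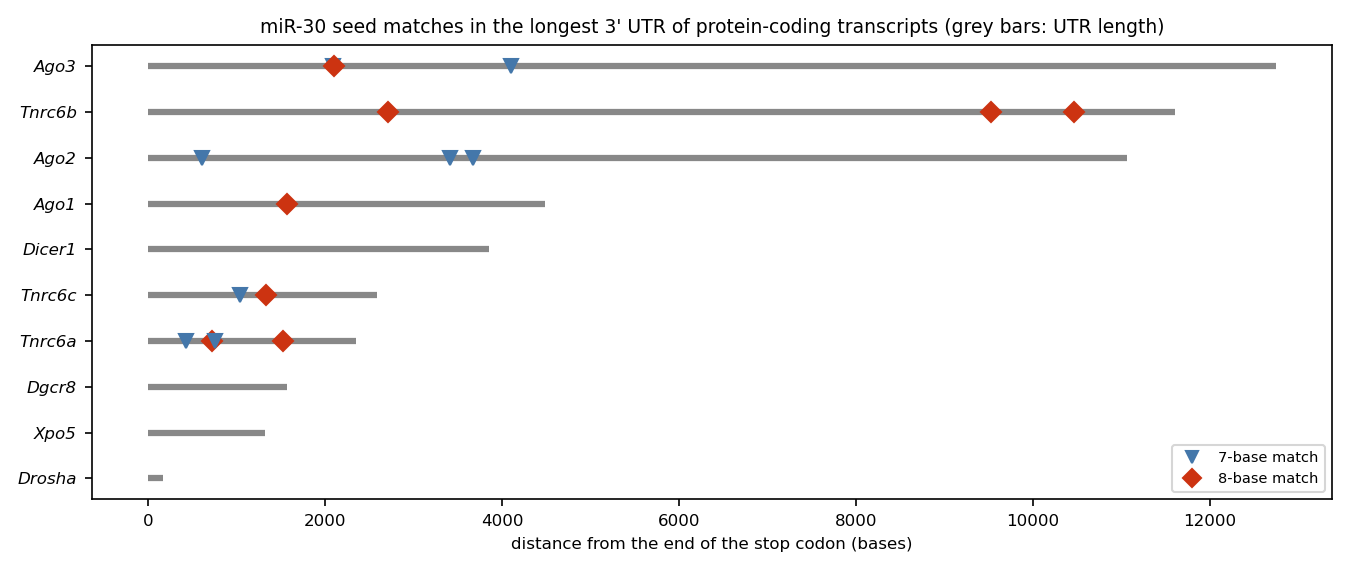
Seed matches of miR-30 along the longest 3′ UTR of protein-coding transcripts for the 10 genes, with the distance from the end of the stop codon in bases on the x axis. Grey bars are the UTRs, triangles 7-base and diamonds 8-base matches; the Ago2 matches start at bases 613, 3409 and 3676 and the Tnrc6b matches at 2709, 9526 and 10462.

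The deposited values are scaled CPM: counts of reads divided by a library size that the authors adjusted. The values imply 39705157 to 60399018 counted reads in the mimic libraries and 62848115 to 101380174 in the control libraries, and the lowest implied number of reads of a member in any library was 75, for Ago3. These numbers are inferred from the step between values, are not counts given in the table, and include 54 rows with values identical to another row. Mttp, the known target, was at 133 ± 7.02 scaled CPM with PBS (SD, n = 4), 122 ± 7.12 with scramble (SD, n = 3) and 69.3 ± 8.83 with the mimic (SD, n = 4). Mimic replicates 1 and 4 stood apart from mimic replicates 2 and 3: the acute phase Saa genes took 2.61% and 2.05% of the values against 0.699% and 0.720%, and the major urinary protein (Mup) genes 12.5% and 11.6% against 34.8% and 41.3%. Results are therefore also given without replicates 1 and 4. In the control libraries the Saa genes took 0.0101% to 0.0211% of the values. Mimic replicates 2 and 3 were thus also above every control library, and leaving out replicates 1 and 4 does not remove the Saa rise. The tissue was checked against hepatocyte markers: 9 of 10 were in the table, and their summed level was 38263 to 43672 scaled CPM with PBS, 38618 to 42998 with scramble and 32179 to 37301 with the mimic. Alb alone was at 17543 ± 3389 with PBS (SD, n = 4), 17305 ± 2625 with scramble (SD, n = 3) and 12092 ± 1618 with the mimic (SD, n = 4). By the limma test described below, Alb did not pass (adjusted p = 0.118 against scramble, 0.0822 against PBS). Of the 9 markers 1 was higher and 0 lower against scramble, and 2 were higher and 1 lower against PBS. In bulk tissue, fewer cells of a type and less RNA per cell cannot be told apart.

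Ago2, the Argonaute that can itself cut a fully paired target, showed the biggest difference of the 10 genes. Its level was 5.94, 3.57, 4.41 and 6.91 scaled CPM in the PBS libraries, 6.29, 4.26 and 5.12 in the scramble libraries and 2.35, 4.13, 2.45 and 2.60 in the mimic libraries. All mimic libraries lay below all scramble libraries, while mimic replicate 2 lay above PBS replicate 2. The means were 5.21 ± 1.50 with PBS (SD, n = 4), 5.22 ± 1.02 with scramble (SD, n = 3) and 2.88 ± 0.839 with the mimic (SD, n = 4). Differences were tested with limma on log2(value + 1), with Benjamini-Hochberg adjustment over all genes and a threshold of 0.05, and genes that passed are called changed. Ago2 fell by 0.69 on the log2 scale against scramble (SE 0.20, adjusted p = 0.0224), to 0.552 of the scramble mean, and by 0.67 against PBS (SE 0.19, adjusted p = 0.0164). Without mimic replicates 1 and 4 its log2 differences were -0.55 (SE 0.25, adjusted p = 0.147) and -0.53 (SE 0.23, adjusted p = 0.134), and neither passed. Only mimic replicates 2 and 3 remain in that setting. Calls over all genes then fell from 4363 to 2548 against scramble and from 5059 to 2894 against PBS. A call lost there cannot be told apart from the smaller number of libraries.
Tnrc6b, one of the scaffolds that link Argonaute to deadenylation, was the other changed gene. Its level was 24.0, 17.6, 23.1 and 26.4 scaled CPM in the PBS libraries, 27.0, 18.5 and 22.3 in the scramble libraries and 12.4, 18.8, 15.3 and 13.9 in the mimic libraries. Here mimic replicate 2 overlapped PBS replicate 2 and scramble replicate 2, and the other mimic libraries were below every control library. Tnrc6b fell by 0.55 against scramble (SE 0.16, adjusted p = 0.0242) and by 0.56 against PBS (SE 0.15, adjusted p = 0.0139). On the means, 15.1 ± 2.72 with the mimic (SD, n = 4) stood against 22.6 ± 4.23 with scramble (SD, n = 3) and 22.8 ± 3.70 with PBS (SD, n = 4). Without mimic replicates 1 and 4 its log2 differences were -0.38 (adjusted p = 0.178) and -0.39 (adjusted p = 0.136).

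Counted over the list, 2 of 10 members were lower and 0 were higher in each of the mimic comparisons, which is 20%. Of all 13636 genes, 32% were changed in mimic against scramble, 14.7% lower and 17.3% higher, and 37.1% in mimic against PBS, 17.1% lower and 20% higher. Taking both directions together, the members' share was below that of all genes; counting lower genes alone, 2 of 10 stood beside 14.7% and 17.1%. The median log2 difference of the 10 members was -0.21 against scramble and -0.20 against PBS, and 9 of 10 values lay below 0 in each comparison. For all genes the median was 0.00, so about as many lay below 0 as above. For genes with a mean of at least 5 it was -0.065 and -0.062. For genes with a 3′ UTR of at least 3000 bases it was -0.17 with a seed match and -0.09 without one against scramble. Against PBS these were -0.17 and -0.08. The mimic comparisons share the mimic libraries, and all 3 comparisons come from 1 fit. The calls against scramble were also lost, for both genes, without scramble replicate 1 (adjusted p = 0.0969 for Ago2 and 0.11 for Tnrc6b), without scramble replicate 3 (0.0583 and 0.0634), without mimic replicate 1 (0.0559 and 0.0623) and without mimic replicate 4 (0.0527 and 0.0587). Against PBS, both genes passed whichever single library was left out.

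**Figure D2:**
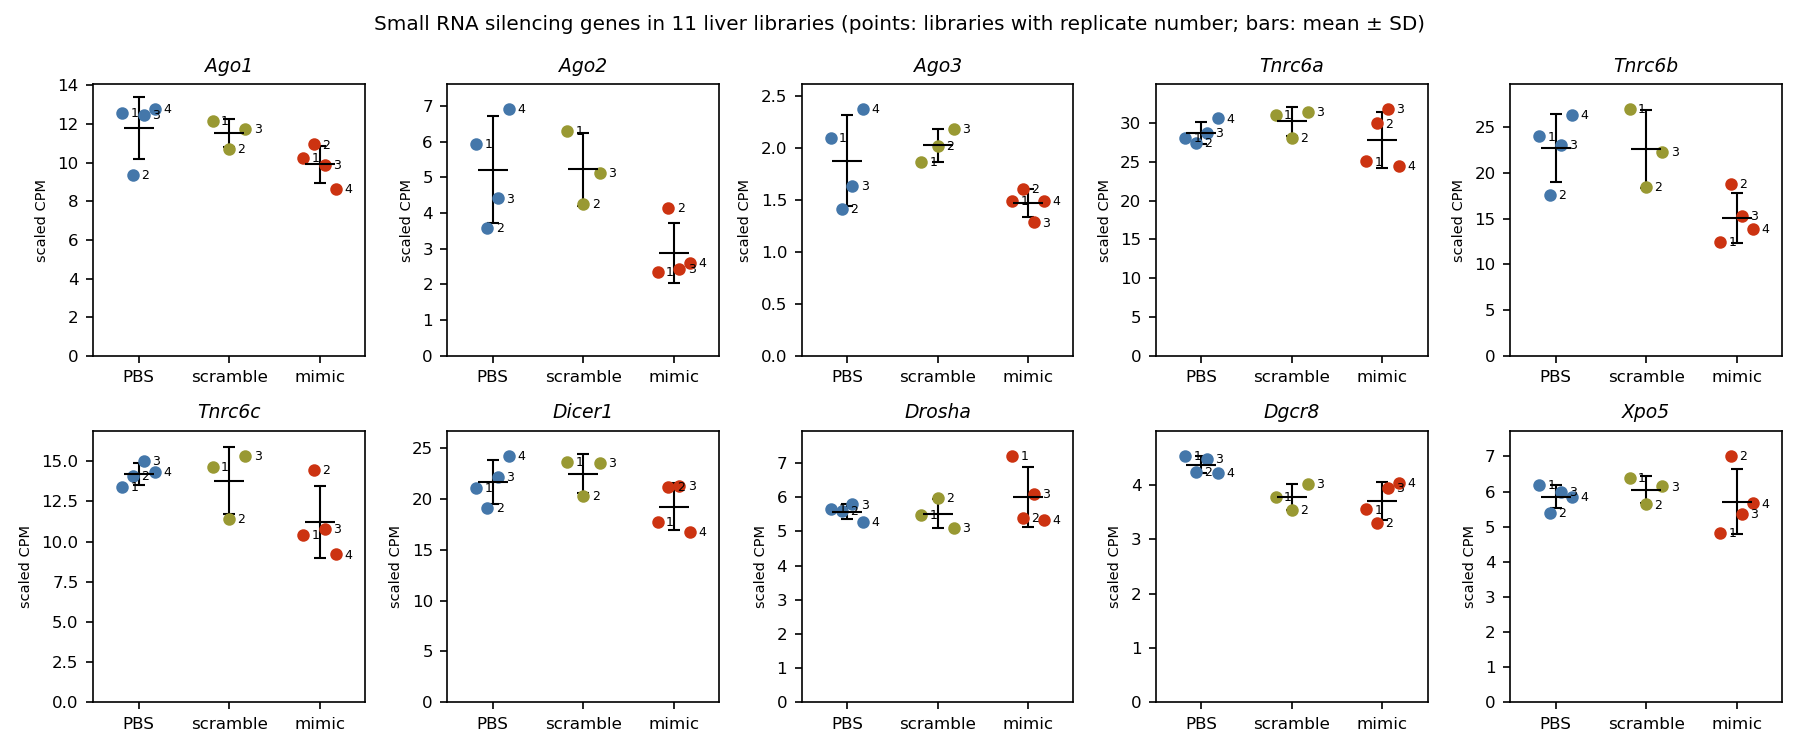
Deposited values of the 10 genes in each library, in scaled CPM from 0, by group; points are libraries with their replicate number, bars the mean and SD. Ago2 in the mimic group runs from 2.35 to 4.13, below the 4.26 to 6.29 of the scramble group, and mimic replicate 2 is the highest mimic library for all 3 Ago genes, Tnrc6b, Tnrc6c and Xpo5.

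The other Argonaute genes did not pass the test. Ago1, expressed more per kilobase than Ago2 in these livers, was at 12.6, 9.38, 12.5 and 12.8 scaled CPM with PBS, 12.1, 10.7 and 11.7 with scramble and 10.2, 10.9, 9.87 and 8.64 with the mimic. The groups overlapped, and the log2 differences were -0.20 (95% interval -0.44 to 0.04, adjusted p = 0.178) against scramble and -0.22 (-0.45 to -0.0014, adjusted p = 0.104) against PBS. Without PBS replicate 2, its lowest PBS library, Ago1 passed against PBS at -0.32 (adjusted p = 0.00952). Ago3, the least expressed member, ranged from 1.41 to 2.37 with PBS, 1.87 to 2.18 with scramble and 1.28 to 1.60 with the mimic. The mimic and scramble libraries did not overlap for Ago3, yet its log2 difference of -0.29 (95% interval -0.54 to -0.05) had an adjusted p of 0.0639; it passed in 5 of 22 alternatives, among them without PBS replicate 2 (limma, adjusted p = 0.034). Members without overlap were 2 of 10 against scramble, Ago2 and Ago3, both lower, where 19.2% of all genes were lower without overlap. Ago4, an Argonaute gene outside the list, had log2 differences of -0.10 (adjusted p = 0.389) against scramble and -0.17 (adjusted p = 0.108) against PBS.

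The remaining TNRC6 genes did not pass either. Tnrc6a, the TNRC6 gene with the highest level, was at 28.0, 27.5, 28.7 and 30.6 scaled CPM with PBS, 31.0, 28.1 and 31.4 with scramble and 25.0, 29.9, 31.8 and 24.4 with the mimic. The low values were those of mimic replicates 1 and 4, while replicates 2 and 3 lay within or above the control range. Its log2 differences were -0.12 (95% interval -0.33 to 0.09, adjusted p = 0.346) against scramble and -0.05 (-0.25 to 0.14, adjusted p = 0.670) against PBS. Tnrc6c was at 13.4 to 15.0 with PBS, 11.4 to 15.3 with scramble and 10.4, 14.4, 10.8 and 9.20 with the mimic. For Tnrc6c the log2 differences were -0.28 (95% interval -0.57 to 0.01, adjusted p = 0.122) against scramble and -0.33 (-0.60 to -0.06, adjusted p = 0.0533) against PBS, and it passed without mimic replicate 2, at -0.40 (adjusted p = 0.0189) and -0.45 (adjusted p = 0.00761).

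None of the 4 processing and export genes passed the test. Dicer1, which cuts the precursor in the cytoplasm, was at 19.1 to 24.2 scaled CPM with PBS, 20.3 to 23.6 with scramble and 17.8, 21.2, 21.2 and 16.7 with the mimic, with log2 differences of -0.22 (95% interval -0.45 to 0.01) and -0.16 (-0.38 to 0.05). As for Tnrc6a, the lowest libraries were mimic replicates 1 and 4. Drosha, the nuclear nuclease, was the only member above 0 in both mimic comparisons, at 0.10 (95% interval -0.11 to 0.31) and 0.08 (-0.11 to 0.28). Its mimic libraries were at 7.21, 5.40, 6.09 and 5.33 scaled CPM and its control libraries between 5.10 and 5.97, and without mimic replicate 1 the differences were 0.02 and 0.0049. Xpo5, the export receptor, was at 5.40 to 6.20 with PBS, 5.64 to 6.39 with scramble and 4.83, 7.02, 5.35 and 5.66 with the mimic, which spans both control groups.
Dgcr8, the RNA-binding partner of Drosha, differed in its pattern. It was at 4.54, 4.24, 4.48 and 4.23 scaled CPM with PBS, 3.78, 3.54 and 4.03 with scramble and 3.55, 3.30, 3.95 and 4.03 with the mimic. The PBS libraries were above every scramble and every mimic library, and scramble and mimic overlapped. Its log2 differences were -0.19 (adjusted p = 0.0528) for mimic against PBS, -0.17 (unadjusted p = 0.0499, adjusted p = 0.9997) for scramble against PBS and -0.02 (95% interval -0.19 to 0.15) for mimic against scramble. Against PBS it passed in 6 of 22 alternatives, among them without mimic replicate 3 (limma, adjusted p = 0.0467). It was the only member without overlap in mimic against PBS, where 14.5% of all genes were lower without overlap, and in scramble against PBS, where 2.39% were. Exons of Dgcr8 overlap those of Trmt2a on the opposite strand over 825 bases, 10.7% of its exon length, and those of Ago2 overlap Chrac1 over 219 bases, 1.56%. The library kit kept strand, but whether the counting used it is not given in the sources used here.

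In scramble against PBS, which asks what an oligomer of another sequence does, 0 of 10 members and 0% of all genes passed limma's test at the adjusted threshold. At an unadjusted p under 0.05 there were 434 of the 13636 genes, Dgcr8 among them as the only member. That share is below the 0.05 that such p-values give on average where no gene differs. Ago2 differed by 0.02 (95% interval -0.42 to 0.46) and Tnrc6b by -0.01 (-0.37 to 0.35).

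**Figure D3:**
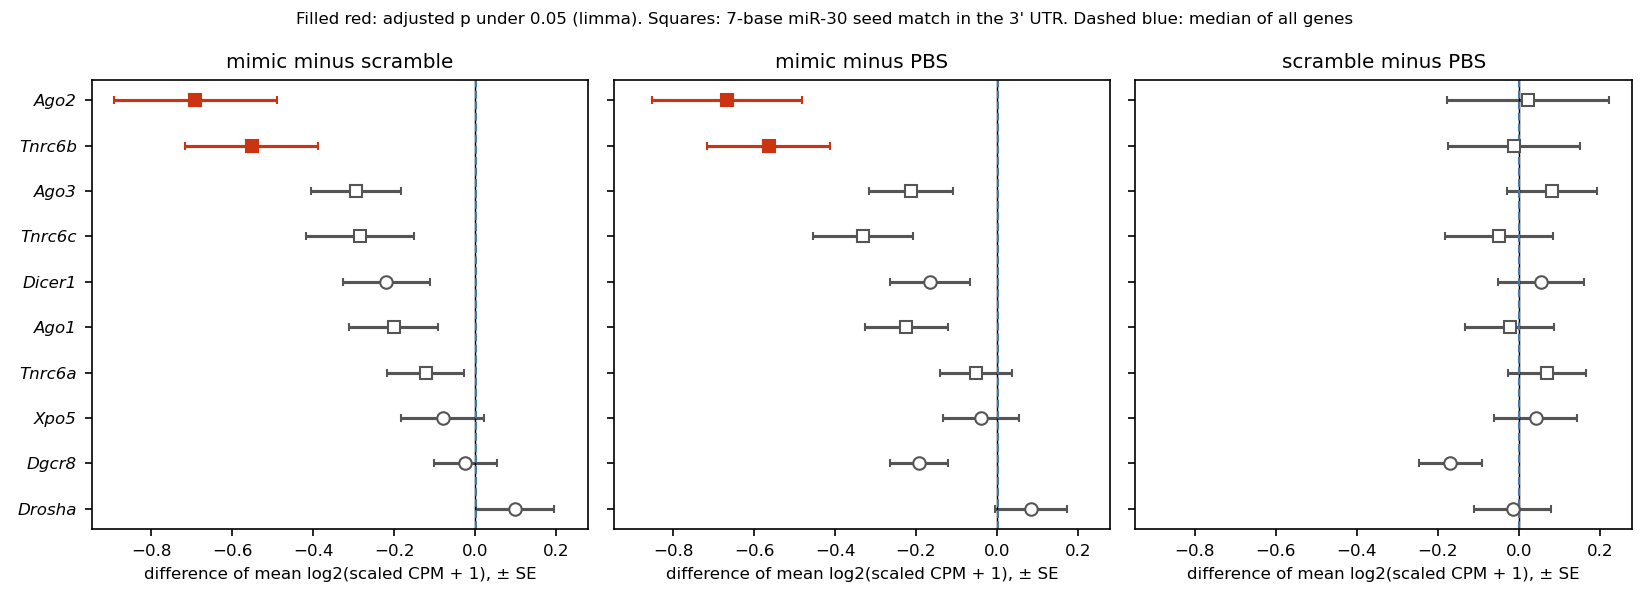
Log2 difference of each gene in the 3 comparisons with its SE, from limma; filled red symbols passed an adjusted p of 0.05, squares hold a 7-base miR-30 seed match in the 3′ UTR and the dashed line is the median of all genes. Ago2 (-0.69 and -0.67) and Tnrc6b (-0.55 and -0.56) are the filled symbols, and no symbol is filled for scramble minus PBS.

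Read against the seed matches, the 6 members that hold a match had log2 differences of -0.69 to -0.12 against scramble, with a median of -0.29, and the 4 without one ran from -0.22 to 0.10, with a median of -0.05. Against PBS the medians were -0.28 and -0.10. The number of matches did not order the members: Tnrc6a holds 4 and Ago3 3, and neither passed. This split follows protein-coding transcripts, a restriction chosen after seeing the data. In the longest 3′ UTR of any transcript type Tnrc6a holds 0 matches and would join the members without one. The members with a match had UTRs of 2345 bases (Tnrc6a) and 2588 bases (Tnrc6c) and, for the other 4, of at least 4491 bases, while those without one reached 3851 bases (Dicer1). Over all genes with a 3′ UTR of at least 3000 bases, 26.6% of those with a match and 22.0% of those without were lower against scramble, and 31.6% and 25.9% were lower against PBS. For all UTR lengths the shares were 23.6% and 13.2% against scramble. The part of UTR length in the members' values was not tested.

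The size of the mimic differences depends on how libraries are scaled. The Mup genes took 11.6% to 41.3% of the values in the mimic libraries and 37.9% to 52.9% in the control libraries. When values were divided by library totals in place of the authors' adjusted sizes, the median of all genes moved to 0.49 against scramble and 0.51 against PBS. Under that scaling Ago2 was at -0.23 and -0.19 and Tnrc6b at 0.01 and 0.01, and neither passed. Drosha then passed as higher in both comparisons (0.60 and 0.61) and Tnrc6a in mimic against PBS (0.54). Measured from the median of all genes under library totals, Ago2 was at -0.72 and -0.70, Tnrc6b at -0.49 and -0.49, and Drosha at 0.11 and 0.10. Tnrc6a was at -0.046 and 0.031 on that measure, so its call as higher lay close to the moved median. The calls of all genes split into 2363 higher and 2000 lower with the deposited scaling and into 5498 higher and 110 lower with library totals against scramble, and into 2733 and 2326 as against 6882 and 120 against PBS.

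**Figure D4:**
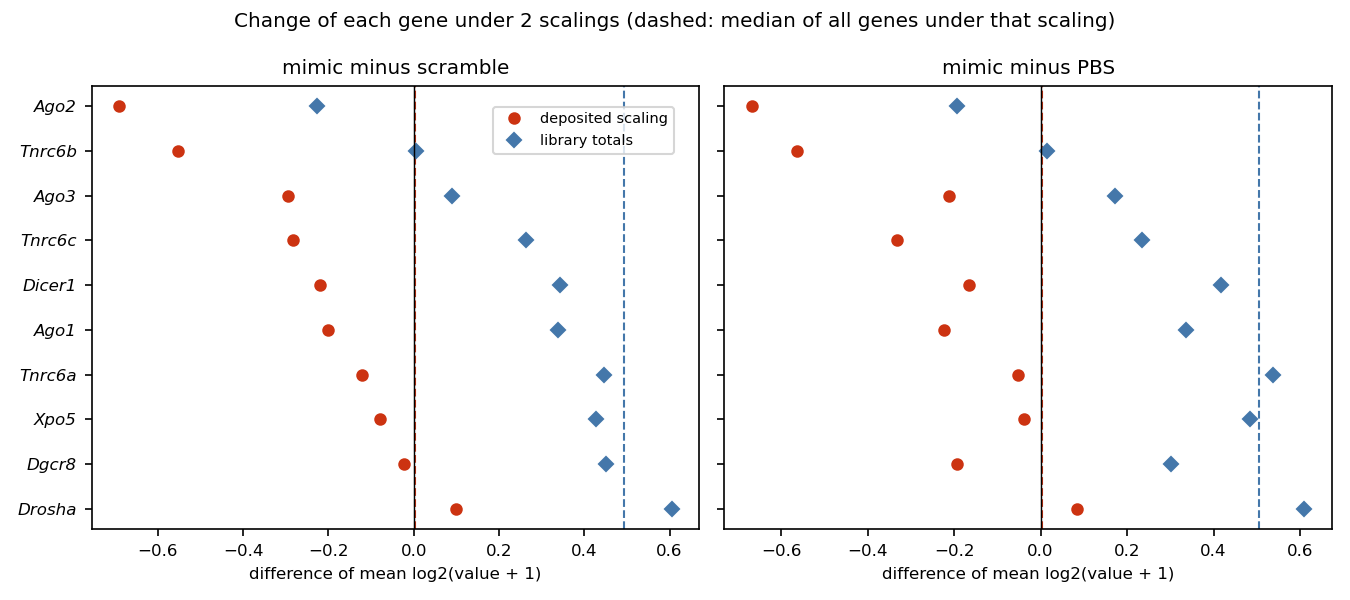
Log2 difference of each gene with the deposited scaling (circles) and with library totals (diamonds), for mimic minus scramble and mimic minus PBS; dashed lines mark the median of all genes under each scaling. Ago2 and Tnrc6b lie left of the median under both, and library totals move the median itself to 0.49 and 0.51.

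A ratio of 2 genes within a library does not depend on scaling, so 6 ratios were compared in the 3 comparisons. Per library, Tnrc6b over Tnrc6a was 0.856, 0.641, 0.803 and 0.862 with PBS, 0.869, 0.659 and 0.709 with scramble and 0.496, 0.627, 0.481 and 0.568 with the mimic. Every mimic library was below every control library, and the log2 ratio differed by -0.54 against PBS (two-sided exact permutation p = 0.0286, the smallest that 4 against 4 can give) and by -0.46 against scramble (exact permutation p = 0.0571). For Ago1 over Ago2 the mean ratio was 2.35 ± 0.451 with PBS (SD, n = 4), 2.25 ± 0.294 with scramble (SD, n = 3) and 3.59 ± 0.761 with the mimic (SD, n = 4). Its log2 ratio was higher by 0.66 against scramble and by 0.60 against PBS (exact permutation p = 0.0571 for each). Drosha over Dgcr8 was 1.28 ± 0.0359 with PBS (SD, n = 4), 1.47 ± 0.210 with scramble (SD, n = 3) and 1.63 ± 0.297 with the mimic (SD, n = 4). The log2 ratio differed by 0.34 for mimic against PBS (exact permutation p = 0.0286). It differed by 0.15 for mimic against scramble (exact permutation p = 0.457) and by 0.19 for scramble against PBS (exact permutation p = 0.0857). After Benjamini-Hochberg adjustment over the 18 tests the lowest value was 0.171, so none passed. With so few libraries no ratio could pass on its own, since many of the 18 tests would have to reach their smallest possible p together. Without mimic replicates 1 and 4 the log2 ratio of Tnrc6b to Tnrc6a differed by -0.43 against scramble and -0.52 against PBS (adjusted exact permutation p = 0.36 for each), and that of Ago1 to Ago2 by 0.55 and 0.49 (0.36 and 0.45). Only mimic replicates 2 and 3 remain in that setting, too few for any exact permutation p under 0.05. These p-values therefore cannot show whether a difference was lost. The difference of Ago3 to Ago2 went from 0.41 to 0.20 against scramble and from 0.51 to 0.31 against PBS, and that of Dicer1 to Drosha from -0.35 to -0.14 and from -0.27 to -0.06.

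**Figure D5:**
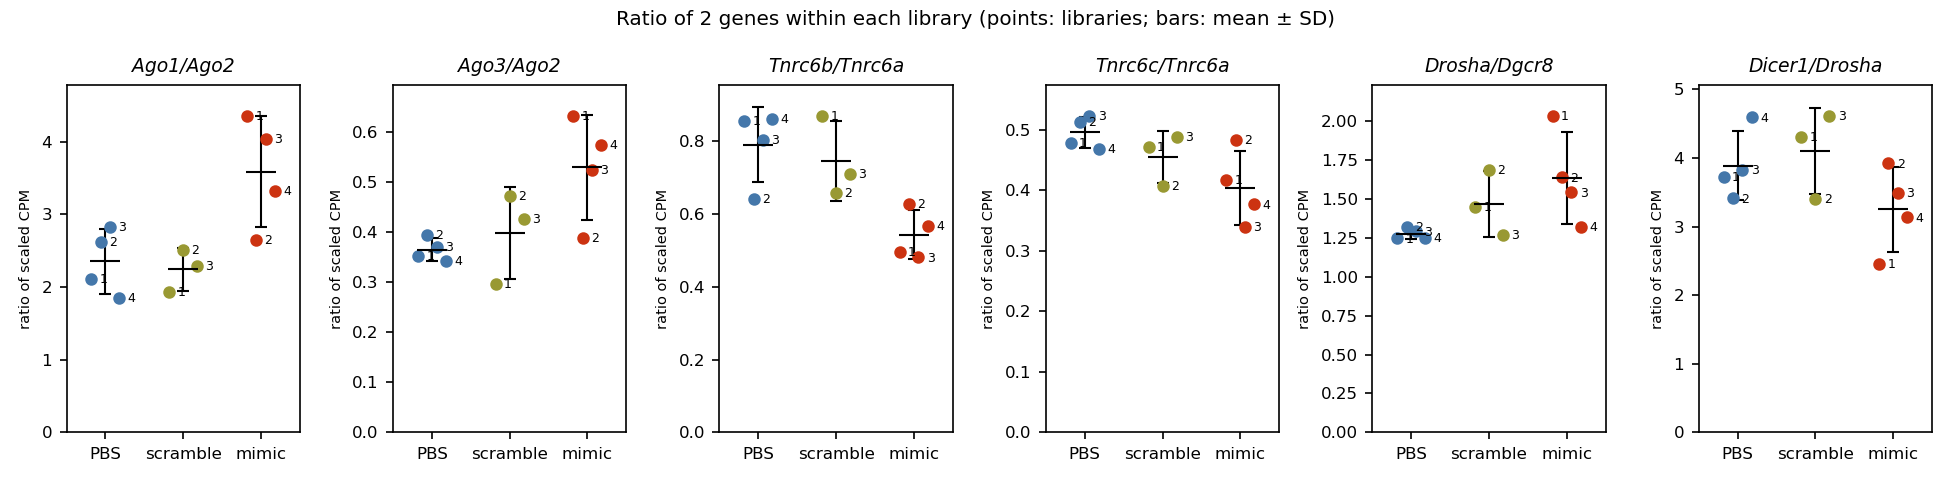
Ratio of scaled CPM of 2 genes within each library, by group, from 0; points are libraries with their replicate number and bars the mean and SD. The mimic libraries of Tnrc6b over Tnrc6a lie at 0.481 to 0.627, below the 0.641 to 0.869 of the control libraries.

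Levels among the 10 genes were compared per kilobase of annotated exon over the 7 control libraries. The median level was highest for Tnrc6a, at 2.26 scaled CPM per kilobase, followed by Ago1 (1.50), Dicer1 (1.32), Tnrc6c (1.12), Tnrc6b (0.975), Drosha (0.944), Xpo5 (0.872), Dgcr8 (0.549), Ago2 (0.365) and Ago3 (0.122). Neighbours in this order overlapped in their range over libraries except Tnrc6a above Ago1, Xpo5 above Dgcr8 and Ago2 above Ago3. So the changed members were Ago2, near the low end of this order, and Tnrc6b, in its middle. Exon length counts all annotated isoforms, and which of them the libraries hold was not tested.

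Genes that work with the members were followed in 6 further lists, of which 81 of 82 genes were measured. In mimic against scramble 4 were higher and 13 lower, 21% of them, and in mimic against PBS 6 were higher and 21 lower, 33.3%, beside the 32% and 37.1% of all genes. Without mimic replicates 1 and 4 these were 2 higher and 5 lower against scramble, 8.64% beside 18.7% of all genes, and 2 higher and 7 lower against PBS, 11.1% beside 21.2%. With library totals, where the median of all genes itself moved, they were 16 higher and 0 lower against scramble, 19.8% beside 41.1% of all genes, and 33 higher and 0 lower against PBS, 40.7% beside 51.3%.
The counts by list stand beside 17.3% higher and 14.7% lower of all genes against scramble, and 20% and 17.1% against PBS. Of 20 RISC loading genes and Argonaute partners, 1 was higher and 6 were lower against scramble, and 1 and 10 against PBS. Ipo8, an importin that binds Argonaute, fell by 0.55 against scramble (SE 0.07, adjusted p = 0.000263) and by 0.51 against PBS, from 25.6 ± 0.301 scaled CPM with scramble (SD, n = 3) and 24.9 ± 1.49 with PBS (SD, n = 4) to 17.1 ± 1.07 with the mimic (SD, n = 4). Mov10, an RNA helicase found with Argonaute, rose by 0.54 against scramble and by 0.50 against PBS. Among chaperone genes, Dnaja2 fell by 0.42 against scramble and Hspa4 by 0.33 against PBS.
Downstream of TNRC6, 0 of 18 deadenylation genes were higher, and 2 were lower against scramble and 3 against PBS. The share of this list that passed was below the 32% and 37.1% of all genes. Cnot6l, a catalytic subunit of the CCR4-NOT deadenylase, fell by 0.39 and 0.42, Pabpc1, the poly(A)-binding protein that TNRC6 contacts, by 0.40 and 0.34, and Tob1, an adaptor of the deadenylase, by 0.34 against PBS. In the decapping and decay list of 14 genes, 1 was higher and 1 lower against scramble and 1 and 2 against PBS. Gigyf2, a translational repressor, fell by 0.46 and 0.41, Patl1, a decapping factor, by 0.28 against PBS, and Dcp1b, a decapping subunit, rose by 0.32 in each. In the tailing list, with 7 of 8 genes measured, Papd5 fell by 0.41 and 0.45, and Zcchc11, a terminal uridylyl transferase, by 0.27 against PBS.
Upstream, 16 nuclear processing cofactors gave 1 higher and 2 lower against scramble and 3 and 3 against PBS. Adar, which edits double-stranded RNA, rose by 0.49 and 0.43, Ncbp1, of the cap-binding complex, fell by 0.24 and 0.26, and Ddx5, a helicase of the Drosha complex, fell by 0.31 against scramble. Of 6 export and Dicer partners, Xpo1 rose by 0.44 and 0.60 and Rangap1 fell by 0.33 and 0.42, and the other 4 did not pass. In scramble against PBS, 0 of the 81 genes passed.

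Markers of other liver cells moved with the mimic group. The summed level of 15 Kupffer cell and macrophage markers was 98.5 to 211 scaled CPM with PBS, 96.4 to 177 with scramble and 162 to 286 with the mimic, with 6 higher and 5 lower against scramble. For the 5 measured of 8 neutrophil markers it was 1.65 to 2.66, 1.17 to 1.77 and 16.2 to 35.6, with all 5 higher and 2 of them, Ltf and Ngp, at 0 in at least 1 control library, and for the 10 stellate cell and fibroblast markers 64.5 to 104, 93.1 to 105 and 193 to 367, with 7 higher and 1 lower. The 8 markers of sinusoidal endothelium summed to 80.1 to 108, 82.8 to 104 and 52.0 to 85.6, with 1 higher and 2 lower against scramble and 0 and 5 against PBS. Of 8 lymphocyte markers 0 were in the table, of 5 bile duct markers 2 were measured (1 higher against scramble, 2 against PBS), and of 6 markers of pancreas, fat and muscle 2 were (1 lower in each mimic comparison). The part of these cells in the members' values was not tested.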

How the data were processed

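Per the labels' protocols, stranded mRNA libraries were sequenced as paired 48-base reads; RNA integrity numbers of 8.4 to 9.2 are given for 7 samples. The submitters' processing notes name Bowtie, SAMtools 0.1.19, bedtools 2.17.0, edgeR 3.8.6 and mm10, without order or settings. The deposited table holds a signal that the authors scaled: columns sum to 605536 to 1504311, and all values are whole multiples of 1 step per library (tolerance 1e-06), called scaled CPM here. The step gives the implied reads.

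Groups came from sample titles. limma 3.58.1 (R 4.3.3) was fitted to log2(value + 1), which understates changes of low genes, with 3 group means over 11 libraries and a mean-variance trend, adjusted over 13636 genes. On simulated data it recovered 69% of planted 2-fold rises for mimic against scramble, 77% for mimic against PBS and 68% for scramble against PBS. The planted genes were a small part of the 13636 in each simulation and had a mean above 1. All were raised, and all genes were given the same spread, which need not be that of the members. Ratios used exact permutation tests. The members and lists were chosen with earlier results of these data known. All members are named, and of each other list up to 3 passing genes with the smallest p per comparison, except 1 gene that is not reported here; cell type lists are given by counts. Alternatives covered pseudocount, filters, scaling, block, variance model, weights and left-out libraries.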

Additional observations from a re-analysis of the deposited data

Results flagged for a closer look

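Values of single libraries were compared with the rest of their group for the 10 genes and 6 ratios in the PBS and mimic groups, 32 groups in all; chance alone marks about 1 in 20 such groups, and 2 were marked. Ago1 in PBS replicate 2 was at 9.38 scaled CPM, while the other PBS libraries were between 12.5 and 12.8. That library was also the lowest PBS library for Ago2, Ago3, Tnrc6a, Tnrc6b, Dicer1 and Xpo5, and without it Ago1 and Ago3 passed in mimic against PBS (-0.32 and -0.29). Ago2 in mimic replicate 2 was at 4.13 scaled CPM, while the other mimic libraries were between 2.35 and 2.60. Without mimic replicate 2 the log2 difference of Ago2 was -0.83 against scramble (limma, adjusted p = 0.00896) and -0.81 against PBS (adjusted p = 0.00659).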

How the results depend on the processing

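Count tests with edgeR or DESeq2, listed as alternatives on recovered reads, were not run, since the deposited values are no counts. Against scramble the 4363 genes called became 2816 with genes of a mean of at least 5 only and 2548 without mimic replicates 1 and 4, and ranged from 2824 (without scramble replicate 1) to 4904 with 1 library left out. Against PBS the 5059 genes became 3273 and 2894 under the same settings, with a range of 3758 to 5681. In scramble against PBS there were 5 with only the 2 groups in the fit and 0 to 1 with 1 library left out. Of the members, the 2 called against scramble became 1 with the mean filter (where Ago2 was not tested), 1 with the replicate block, 5 with array weights and 0 without mimic replicates 1 and 4, and ranged from 0 to 3 with 1 library left out. With library totals both were lost and 1 other member, Drosha, was called as higher, with the median of all genes at 0.49. The 2 called against PBS became 1 with the mean filter, 4 with median-of-ratios factors, 4 with trimmed means computed without Mup and Saa rows, 4 with quantile normalization, 6 with array weights and 0 without mimic replicates 1 and 4, and ranged from 2 to 4, with 4 without PBS replicate 2. With library totals both were lost, and 2 other members, Drosha and Tnrc6a, were called as higher, with the median of all genes at 0.51.

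The labels do not say that replicate numbers pair the libraries. Deviations of same-numbered libraries correlated between -0.277 and 0.258 (10 pairs), and those of differently numbered ones between -0.402 and 0.353 (30 pairs). These ranges show no closer relation of same-numbered libraries, but they cannot exclude a weak one. With the replicate block Tnrc6b against scramble was at -0.57 (limma, adjusted p = 0.0519), Ago2 at -0.74 (0.0381), and Tnrc6b in scramble against PBS at 0.0083.

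Signs turned as follows, the cause not being tested except that library totals moved the median of all genes. With library totals the values against scramble were 0.34 for Ago1, 0.089 for Ago3, 0.45 for Tnrc6a, 0.0055 for Tnrc6b, 0.26 for Tnrc6c, 0.34 for Dicer1, 0.45 for Dgcr8 and 0.43 for Xpo5. Against PBS they were 0.34, 0.17, 0.54, 0.014, 0.23, 0.42, 0.30 and 0.48 in the same order, and in scramble against PBS Drosha was at 0.0055 and Tnrc6b at 0.0085. Without mimic replicates 1 and 4 Tnrc6a was at 0.031 and 0.10 and Xpo5 at 0.018 and 0.059. Quantile normalization put Tnrc6a at 0.0096 against PBS, and array weights put Dgcr8 at 0.0089 against scramble and Ago2 at -0.039 in scramble against PBS. With 1 library left out, Tnrc6a ranged from -0.12 to 0.0043 and Xpo5 from -0.13 to 0.026 against PBS, and Dgcr8 from -0.061 to 0.019 against scramble. In scramble against PBS Ago1 ranged from -0.12 to 0.025, Ago2 from -0.11 to 0.15, Dicer1 from -0.001 to 0.12, Drosha from -0.064 to 0.032, Tnrc6b from -0.14 to 0.12 and Tnrc6c from -0.12 to 0.073. The log2 ratios there ranged from -0.17 to 0.049 for Ago1 to Ago2, from -0.036 to 0.30 for Ago3 to Ago2 and from -0.015 to 0.21 for Dicer1 to Drosha. None of these values passed in the reported fit except Tnrc6b in the mimic comparisons.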

Other observations

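Within the 7 control libraries, where no mimic was given, the log2 values of Ago2 and Tnrc6b varied together. Pearson's r was 0.917 (exact permutation p = 0.00198, n = 7) and Spearman's rho 0.929 (exact permutation p = 0.00675, n = 7). Without the 2 libraries farthest from the median of Ago2, r was 0.827 over 5 libraries. The pair was chosen after seeing the data and was the 1 relation computed, so these p-values do not account for the choice. The control libraries are of 2 groups. Other pairs were not computed, so the relation is not shown to be particular to Ago2 and Tnrc6b. PBS replicate 2, the lowest PBS library for both genes, was also the lowest for Ago1, Ago3, Tnrc6a, Dicer1 and Xpo5.

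The spread between libraries differed among the members. In the PBS group the SD was 28.8% of the mean for Ago2, 23.1% for Ago3 and 16.3% for Tnrc6b, against 3.66% for Dgcr8, 3.88% for Drosha and 4.73% for Tnrc6a. For Tnrc6c it was 4.69%. In the scramble group the SD was 19.5% of the mean for Ago2, 18.7% for Tnrc6b and 15.1% for Tnrc6c, against 7.80% for Ago3, 7.86% for Drosha, 6.44% for Dgcr8 and 6.07% for Tnrc6a.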
